A study of Mus musculus with 14 samples.

Results

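The genes described here are Hcn2, Hcn3 and Hcn4, which encode hyperpolarization-activated cyclic nucleotide-gated (HCN) channels, and Pex5l, which encodes the HCN auxiliary subunit also called TRIP8b. They were chosen by name, as 4 of the 24100 rows of the deposited gene count table. RNA was sequenced from the cerebellum of mice at postnatal day 21 in 14 libraries. The mice were wild type (WT) or knockout (KO) for Astn2, which encodes the neuronal membrane protein astrotactin 2, and both genotypes had been crossed to the Tg(Pcp2-L10a-EGFP) bacTRAP line. In that line an EGFP-tagged ribosomal protein L10a is driven by Pcp2, a gene of Purkinje cells, so controls carry the transgene too. Translating ribosome affinity purification (TRAP) collects the tagged ribosomes with anti-GFP antibodies, and the labels name Purkinje cells as their source. The input is a small part of the cleared homogenate set aside before the purification and represents whole cerebellum. The groups were input WT (4 libraries, 1 female and 3 male), input KO (3 libraries, 2 female and 1 male), TRAP WT (3 libraries, 1 female and 2 male) and TRAP KO (4 libraries, 2 female and 2 male). The labels do not say which libraries came from which animals, so p-values measure only the spread between libraries.

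HCN channels are tetramers that open when the membrane hyperpolarizes and pass sodium and potassium ions, a current known as Ih. Cyclic AMP binds to their cytoplasmic tail and makes opening easier, and the subunits differ in their speed and in how strongly they respond to cyclic AMP. In neurons Ih contributes to the resting potential, to dendritic integration and to pacemaking, and the current has been recorded in Purkinje cells and in the terminals of cerebellar basket cells. TRIP8b binds the channels' tail, controls how many reach the cell surface and reduces their response to cyclic AMP.

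The 3 channel genes are close relatives, so the pore region is shown first to make clear how far their sequences differ for read assignment. Each stretch is 57 bases inside exon 4 of the transcript with the longest coding sequence. The bases are from GENCODE M21 transcript sequences, with positions on GRCm38. Capitals mark the codons of the selectivity filter, a glycine-tyrosine-glycine motif shared with potassium channels. Hcn2 lies at chr10:79728935-79728991 on the plus strand, Hcn3 at chr3:89150982-89151038 on the minus strand and Hcn4 at chr9:58855567-58855623 on the plus strand.
Hcn2: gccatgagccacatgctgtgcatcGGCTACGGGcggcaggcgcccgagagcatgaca
Hcn3: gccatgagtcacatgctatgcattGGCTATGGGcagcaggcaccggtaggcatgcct
Hcn4: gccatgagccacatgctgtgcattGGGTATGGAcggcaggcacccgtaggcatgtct
In this stretch Hcn3 and Hcn4 were identical at 50 of 57 bases, Hcn2 and Hcn4 at 47, and Hcn2 and Hcn3 at 45. Over the whole annotated transcripts, Hcn2 and Hcn3 each had 5 sequences of 31 bases in common with another of the 4 genes, Hcn4 had 4 and Pex5l had 0. The 4 genes could therefore be told apart by nearly all of their sequence, even in the conserved pore.

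Hcn2 spans chr10:79716634-79736108 on the plus strand of GRCm38, with 8 exons in a longest transcript of 3195 bases whose GC content of 65.4% is higher than that of 99.7% of 15117 expressed genes. Hcn3 spans chr3:89146074-89160196 on the minus strand, with 8 exons and 4002 bases. Hcn4 spans chr9:58823412-58863175 on the plus strand, with 8 exons and 6118 bases. Pex5l spans chr3:32949408-33143247 on the minus strand, with 15 exons in its longest transcript of 4206 bases and 12 annotated transcripts. Hcn3 shares 711 exon bases with the opposite-strand gene Pklr, and Pex5l shares 340 and 24 exon bases with the antisense genes Gm37459 and 4930419G24Rik. Whether counting used strand is not given in the sources used here, so counts in these overlaps are uncertain. Pklr itself, the liver-type pyruvate kinase gene, had a highest level of 0.416 CPM in any library.

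Library totals ranged from 18.8 M to 54.2 M counts (M, 1e6). Levels are normalised counts (CPM) after scaling by trimmed mean of M-values (TMM). A floor of 3 counts amounts to between 0.0553 and 0.160 CPM, depending on depth. Astn2 was at 94.5 ± 6.76 CPM (SD, n = 4) in input WT and 0.877 ± 0.129 (n = 3) in input KO, and at 130.3 ± 14.9 (n = 3) in TRAP WT and 1.52 ± 0.447 (n = 4) in TRAP KO, as labelled. All 12 Purkinje markers examined were higher in TRAP, with median log2 fold changes of 3.24 (WT) and 3.12 (KO). TRAP WT replicate 3 stood apart: 12.8% of 13424 genes differed more than 2-fold from the rest of its group, against 0.216% to 5.31% in the other 13 libraries. It held the highest level within TRAP WT for each of the 4 genes, so values without it are given below.

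Hcn2 was the most abundant of the 4 genes per kilobase of transcript in all 14 libraries. Its mean level was 42.3 CPM per kb in input WT, 32.4 in input KO, 68.4 in TRAP WT and 53.2 in TRAP KO, above 91.9%, 88.8%, 90.1% and 88.0% of expressed genes. Pex5l was next in input, at 7.69 ± 1.11 CPM per kb in WT and 6.76 ± 1.02 in KO. Hcn3 followed at 1.88 ± 0.211 and 1.62 ± 0.210 CPM per kb, and Hcn4 at 0.616 ± 0.129 and 0.673 ± 0.0680. No ranges of neighbouring genes in this order overlapped within either input group.

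In TRAP the order below Hcn2 was less clear. Pex5l was at 1.504 ± 0.403 CPM per kb in TRAP WT and 1.31 ± 0.306 in TRAP KO, Hcn3 at 1.32 ± 0.594 and 0.898 ± 0.241, and Hcn4 at 0.503 ± 0.394 and 0.577 ± 0.109. The ranges of Pex5l and Hcn3 overlapped in both TRAP groups, and so did those of Hcn3 and Hcn4. Within single TRAP libraries, Hcn3 exceeded Pex5l only in TRAP WT replicate 3, and Hcn4 exceeded Hcn3 only in TRAP KO replicate 4. Per kilobase of coding sequence, Pex5l exceeded Hcn3 in every TRAP library. Hcn2 made up 94.3% ± 0.963 (SD, n = 4) of the summed per-kilobase level of the 3 channel genes described here in input WT and 93.4% ± 0.196 (n = 3) in input KO. The share was 97.5% ± 0.723 (n = 3) in TRAP WT and 97.3% ± 0.415 (n = 4) in TRAP KO, and every TRAP library lay above every input library. These shares do not cover the whole HCN family, since another member of it was not analysed here.

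Hcn2 encodes a channel subunit with a strong response to cyclic AMP. In input WT its level was 120.4, 116, 149 and 156 CPM in replicates 1 to 4, and in TRAP WT it was 182, 197 and 276 CPM. All 3 TRAP WT libraries lay above all 4 input WT libraries. In KO the level was 108, 103 and 99.2 CPM in input and 168, 174, 208 and 129 CPM in TRAP, again without overlap.

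In WT the TRAP fraction held 1.62-fold more Hcn2 transcript than input (log2 fold change 0.70 ± 0.17 SE, edgeR quasi-likelihood test, adjusted p = 0.00222). In KO the ratio was also 1.62 (0.70 ± 0.18, adjusted p = 0.00282). By the same test 37.0% of the 16042 genes were higher in TRAP in WT and 36.3% in KO, and 34.4% and 37.8% were higher without overlap, so a rise of this kind was common. The Hcn2 change exceeded that of 69.5% of genes in WT and 70.5% in KO, and it was below that of each of the 12 Purkinje markers, whose lowest log2 fold change was 1.57 in WT and 1.13 in KO. The WT value was 0.47 ± 0.17 without TRAP WT replicate 3 (edgeR, adjusted p = 0.0248).

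The direction of the Hcn2 difference depends on how libraries are scaled. With library totals in place of TMM it was -0.12 in WT and -0.036 in KO, and the median of all genes, -0.09 (WT) and -0.11 (KO) under TMM, became -0.91 and -0.85. Relative to that median, Hcn2 stood 0.79 higher in WT under TMM and 0.78 under library totals, and 0.81 higher in KO under both. In KO, an offset for GC content lowered the Hcn2 value to 0.39, with adjusted p = 0.0867 in edgeR.

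**Figure D1:**
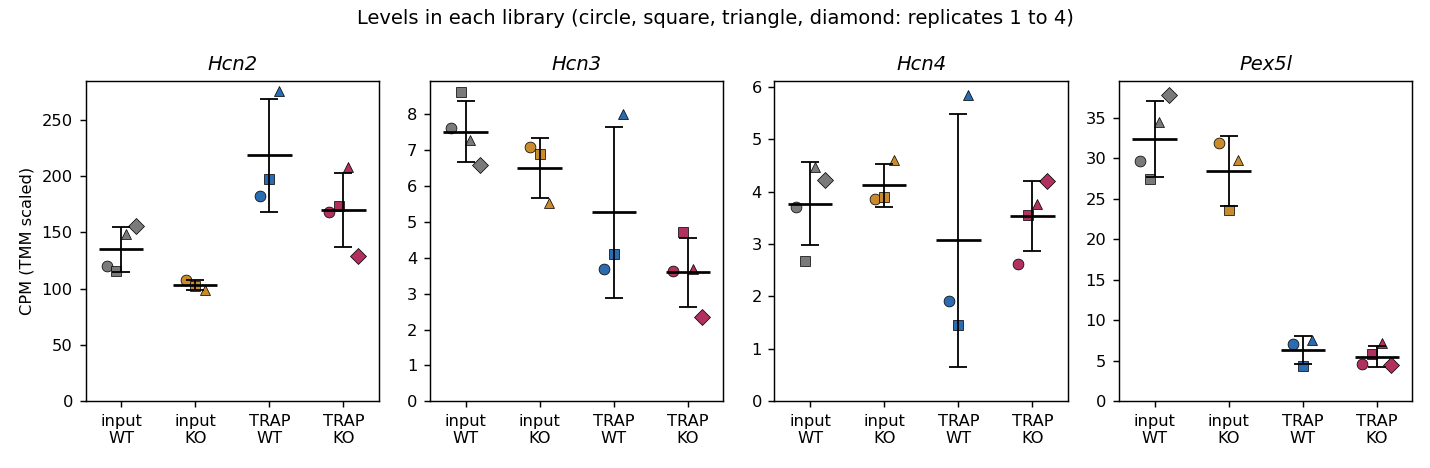
Level of each gene in CPM (TMM scaled, linear axis from 0) in every library of the 4 groups, with horizontal lines at the mean and bars of 1 SD. Hcn2 is higher and Pex5l lower in TRAP than in input, and TRAP WT replicate 3 (triangle) is the highest TRAP WT library in all 4 panels.

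Pex5l showed the largest difference between fractions among the 4 genes. In input WT it was at 29.7, 27.4, 34.4 and 37.8 CPM, and in TRAP WT at 7.04, 4.39 and 7.55 CPM. In KO the input libraries had 31.9, 23.6 and 29.8 CPM and the TRAP libraries 4.56, 5.83, 7.21 and 4.47 CPM. All TRAP libraries lay far below all input libraries in both genotypes.

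The auxiliary subunit transcript was 5.07-fold lower in TRAP in WT (log2 fold change -2.34 ± 0.22 SE, edgeR, adjusted p = 4.18e-07). It was 5.22-fold lower in KO (-2.38 ± 0.21, adjusted p = 2.00e-07). Lower levels in TRAP passed the test for 38.5% of genes in WT and 39.6% in KO, and 38.2% and 40.2% were lower without overlap. Only 7.12% of genes in WT and 4.79% in KO had a more negative value than Pex5l. The call held in all 25 alternatives run in each genotype, and its values spanned -3.16 to -2.03 (WT) and -3.11 to -2.07 (KO).

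The size of the Pex5l difference fell within the span of markers of other cell types. TRAP held 19.6% of the input level of Pex5l in WT and 19.4% in KO. The summed granule cell markers stood at 23.3% and 23.9% of input, the inhibitory interneuron markers at 25.1% and 26.8%, and the oligodendrocyte markers at 24.1% and 27.7%. In WT all 10 markers of each of these 3 lists were lower in TRAP, with log2 fold changes from -3.03 to -1.69, from -3.19 to -1.51 and from -2.70 to -1.04. None of these markers was at 0 in every library of either TRAP group. Whether those counts came from RNA of other cells, and the part of such RNA in the remaining Pex5l counts, was not tested. In bulk RNA, fewer cells of a type and less RNA per cell cannot be told apart. Pex5, the paralog of Pex5l that encodes the peroxisomal import receptor, was higher in TRAP instead, by 0.32 ± 0.088 (WT) and 0.30 ± 0.089 (KO) on the log2 scale (edgeR, adjusted p = 0.00480 and 0.00718).

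**Figure D2:**
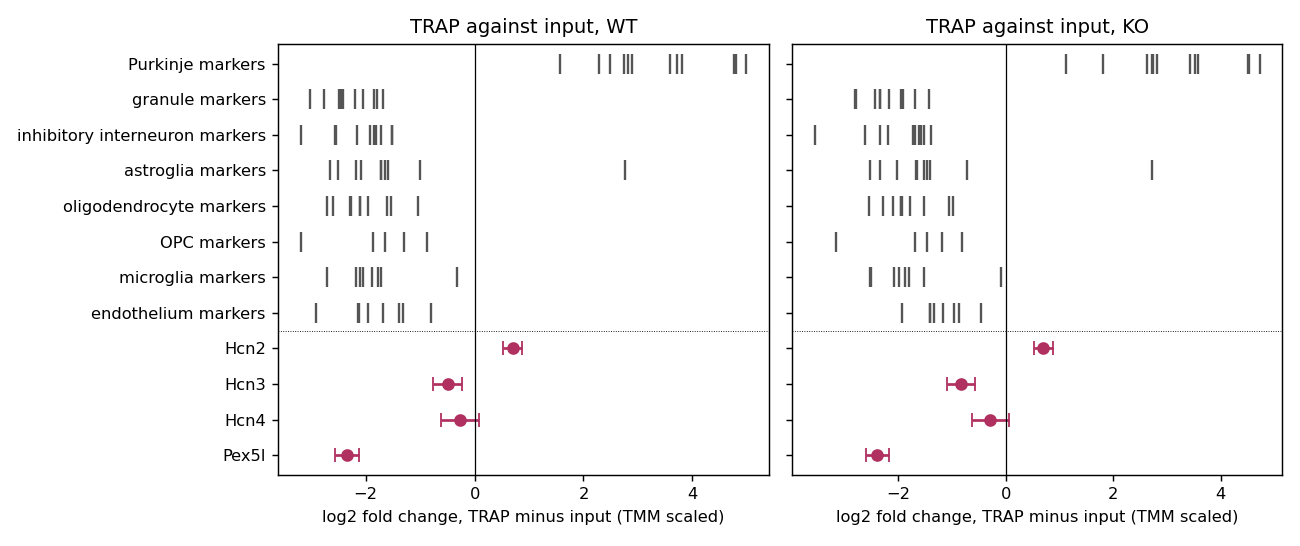
Log2 fold change of TRAP over input (TMM scaled) in WT and KO, with each tick 1 marker gene of the named cell type and each red point 1 of the 4 genes with its SE. Pex5l lies among the markers of non-Purkinje cells and Hcn2 lies between 0 and the Purkinje markers. The single astroglia tick on the right is Aldoc, which Purkinje cells of zebrin-positive stripes also express.

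Hcn3 encodes a channel subunit with little response to cyclic AMP. Its input WT levels were 7.60, 8.60, 7.28 and 6.57 CPM, and its TRAP WT levels were 3.69, 4.11 and 8.004 CPM. TRAP WT replicate 3 reached the input range while the other TRAP WT libraries lay below it. In KO, input was at 7.08, 6.87 and 5.53 CPM and TRAP at 3.63, 4.70, 3.69 and 2.35 CPM, with all TRAP libraries lower.

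In KO Hcn3 was 1.78-fold lower in TRAP (log2 fold change -0.84 ± 0.26 SE, edgeR, adjusted p = 0.0105). In WT the value was -0.49 ± 0.27 and did not pass the test (adjusted p = 0.106). Leaving out TRAP WT replicate 3 made the WT value -1.02 ± 0.23, with adjusted p = 0.00122 in edgeR. With same-numbered input and TRAP libraries of both genotypes treated as pairs (the replicate block), it was -0.63, with adjusted p = 0.0491 in edgeR. That fit left out libraries without a same-numbered partner and had no sex term, so the shift cannot be put down to pairing alone. The genotypes were not shown to differ in this change, since the interaction of genotype and fraction was -0.34 ± 0.37 for Hcn3.

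Hcn4 encodes the slowly activating, cyclic AMP-responsive subunit best known from the sinoatrial node. It was the lowest of the 4 genes per kilobase in 13 of 14 libraries, with 26 to 315 counts in a library. Its levels were 3.71, 2.68, 4.46 and 4.23 CPM in input WT and 1.91, 1.46 and 5.85 CPM in TRAP WT. TRAP WT replicate 3 had the highest Hcn4 level of all 14 libraries, and the other TRAP WT libraries had the lowest. In KO the levels were 3.85, 3.90 and 4.60 CPM in input and 2.61, 3.54, 3.75 and 4.203 CPM in TRAP, which overlap.

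Hcn4 did not pass the test between fractions in either genotype, at -0.26 ± 0.35 in WT and -0.29 ± 0.34 in KO (edgeR, adjusted p = 0.509 and 0.454). In WT this rested on 1 library. Without TRAP WT replicate 3 the WT value was -1.15 ± 0.27, with adjusted p = 0.00158 in edgeR, and without TRAP WT replicate 2 it was 0.048. In TRAP WT replicate 3 the summed markers of granule cells, inhibitory interneurons, oligodendrocytes, astroglia and microglia were the lowest of the 3 TRAP WT libraries, at 1245, 84.5, 1065, 7248 and 15.8 CPM. The Purkinje markers were the highest there, with a mean log2(CPM + 1) of 11.8 against 11.5 in each of the other TRAP WT libraries. The summed choroid plexus (205 CPM) and cerebellar nuclei (314 CPM) markers were also highest there, but the mean log2(CPM + 1) of these lists was not. The cerebellar nuclei list holds Nefh, which Purkinje cells also express. The unipolar brush cell markers were highest there by both their sum (1922 CPM) and their mean log2(CPM + 1) (5.70). The summed oligodendrocyte precursor and endothelial markers there lay between those of the other TRAP WT libraries. The part of these shifts in the Hcn4 level was not tested.

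Ratios of 2 genes within a library do not depend on the scaling of libraries. The log2 ratio of Hcn2 to Pex5l counts was 2.06 ± 0.040 (SD, n = 4) in input WT and 1.87 ± 0.215 (n = 3) in input KO. It was 5.13 ± 0.402 (n = 3) in TRAP WT and 4.95 ± 0.172 (n = 4) in TRAP KO. Input libraries ranged from 1.74 to 2.12 and TRAP libraries from 4.69 to 5.49, with no overlap. The ratio of Hcn2 to Hcn3 rose from a range of 3.75 to 4.57 in input to 5.11 to 5.82 in TRAP. The ratio of Hcn2 to Hcn4 was 4.43 to 5.43 in input and 4.94 to 7.08 in TRAP, and these ranges overlap.

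**Figure D3:**
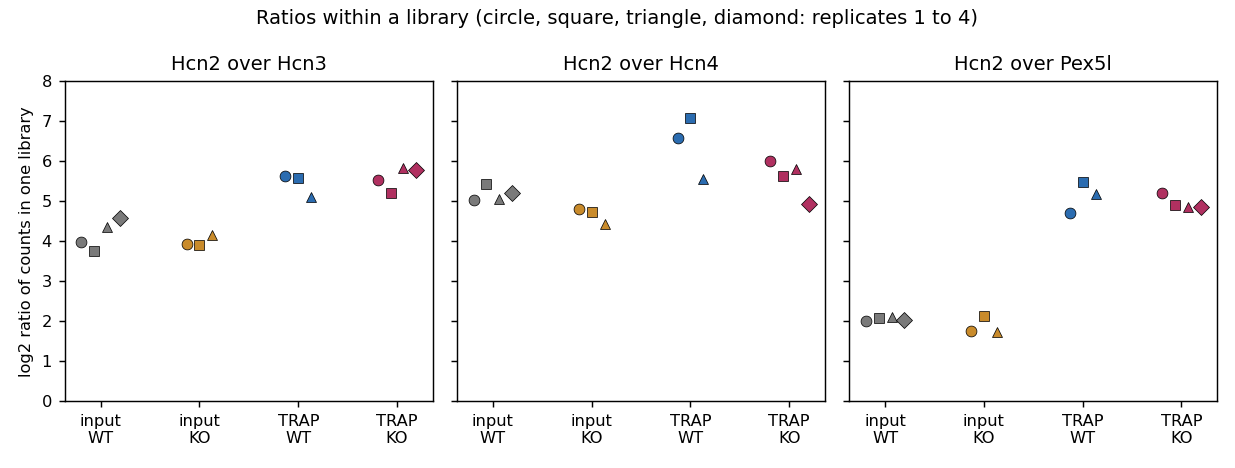
Log2 ratio of Hcn2 counts to those of Hcn3, Hcn4 and Pex5l within each library, by group. The Hcn2 to Pex5l and Hcn2 to Hcn3 ratios are higher in every TRAP library than in every input library, and the Hcn2 to Hcn4 ratios overlap.

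Loss of Astn2 was compared next, within each fraction. In TRAP none of the 4 genes passed the test: the log2 fold changes of KO over WT were -0.33 ± 0.22 for Hcn2, -0.56 ± 0.38 for Hcn3, 0.33 ± 0.45 for Hcn4 and -0.19 ± 0.28 for Pex5l (edgeR, adjusted p = 1.00 for each). The number of the 4 genes at an unadjusted p under 0.05 was 0, and DESeq2 also called 0. The groups overlapped for each gene, and 0.00707% of 14145 genes passed in this comparison, which was Astn2 alone. Without TRAP WT replicate 3 the values were -0.15, -0.14, 1.06 and -0.03 in the same order, and the edgeR p for Hcn4 was then 0.00850 before adjustment and 0.940 after it.

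The mean Hcn2 level in input was 135 ± 20.1 CPM for WT (SD, n = 4) against 103 ± 4.51 CPM for KO (n = 3), and all 3 KO libraries lay below all 4 WT libraries. The difference of -0.37 ± 0.13 had an unadjusted p of 0.0213 and did not pass after adjustment (edgeR, adjusted p = 0.289). An unadjusted p under 0.05 with lower levels in KO was found for 7.50% of 15997 genes, and 4.24% were lower without overlap. Leaving out 1 library at a time gave values from -0.53 to -0.17. Hcn3 was also lower, at -0.31 ± 0.13, with overlapping groups (edgeR, unadjusted p = 0.0463, adjusted p = 0.358). An unadjusted p under 0.05 in either direction was thus found for 2 of the 4 genes, and for 2198 of 15997 genes tested. Hcn4 (0.17 ± 0.19) and Pex5l (-0.14 ± 0.15) overlapped between genotypes and did not pass (adjusted p = 0.735 and 0.703). Of all genes in input, 0.0188% passed, and DESeq2 called 0 of the 4 genes.

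Marker lists with a lower mean in input KO than in input WT, by both their summed level and their mean log2(CPM + 1), were those of endothelium, oligodendrocytes, cerebellar nuclei and microglia. The summed oligodendrocyte markers ranged from 5219 to 6197 CPM in input KO and from 5716 to 7687 CPM in input WT, and the endothelial markers from 16.4 to 25.3 CPM and from 24.4 to 36.7 CPM. The cerebellar nuclei markers summed to 75.6, 76.3, 104 and 120.4 CPM in input WT replicates 1 to 4 and to 87.3, 74.0 and 87.9 CPM in input KO, so that the same WT libraries, replicates 3 and 4, were high as for Hcn2. Nefh, which Purkinje cells also express, had a mean of 70.5 CPM in input WT, of a mean sum of 94.0 CPM for that list. The microglial markers ranged from 38.4 to 43.4 CPM in input KO and from 32.4 to 56.1 CPM in input WT, also with replicates 3 and 4 highest. Replicates 3 and 4 were the highest input WT libraries too for the summed Purkinje, oligodendrocyte, oligodendrocyte precursor and unipolar brush cell markers. For the endothelial markers, replicate 3 was highest and replicate 4 lowest. None of the endothelial, oligodendrocyte, cerebellar nuclei and microglial markers passed the test, and their part in the Hcn2 values was not tested. The interaction of genotype and fraction was -0.002 ± 0.25 for Hcn2, -0.02 ± 0.49 for Hcn4 and -0.04 ± 0.30 for Pex5l. In the edgeR interaction test 0% of 16042 genes passed, 430 had an unadjusted p under 0.05, and DESeq2 called 1.

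**Figure D4:**
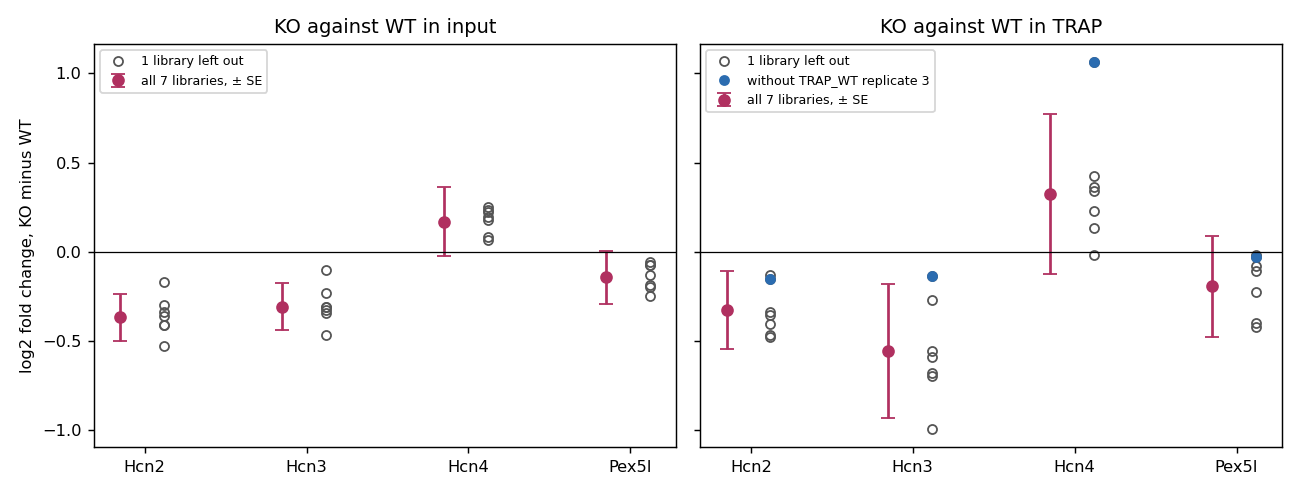
Log2 fold change of KO over WT in input and in TRAP, with filled red points for all 7 libraries with their SE and open points for fits that leave out 1 library, of which the blue point leaves out TRAP WT replicate 3. The Hcn2 points lie below 0 in both fractions and the Hcn4 point without TRAP WT replicate 3 stands apart at 1.06.

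Lists of other genes of the pathway were read in the same fits, against a median over all genes of -0.09 in WT and -0.11 in KO. Over all genes tested, 37.0% were higher and 38.5% lower in TRAP in WT, and 36.3% and 39.6% in KO, and each list count below is to be read against these shares. Of 10 adenylyl cyclases, which make cyclic AMP, 8 were lower and 0 higher in TRAP in each genotype, with a median of -1.77 in WT and -1.92 in KO. Adcy1, a calcium-stimulated cyclase, was 5.00-fold lower in WT (-2.32 ± 0.21) and Adcy5 4.40-fold lower (-2.14 ± 0.21). In KO Adcy1 and Adcy7 had the largest changes, at -2.35 ± 0.19 and -2.30 ± 0.39. Without TRAP WT replicate 3 the count in WT was 9 lower and 0 higher.

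Phosphodiesterases, which break down cyclic nucleotides, were mixed: 3 of 15 were higher and 9 lower in TRAP in each genotype. Pde2a, which is stimulated by cyclic GMP, was 3.86-fold higher in WT (1.95 ± 0.096) and Pde7b 2.15-fold higher. Pde3b was 6.97-fold lower in WT (-2.80 ± 0.16) and Pde1a 6.03-fold lower. The same pairs had the largest changes in KO, with log2 fold changes of 2.05 and 1.26 for Pde2a and Pde7b and of -2.49 and -2.71 for Pde3b and Pde1a. Among 8 genes of protein kinase A and Epac, the effectors of cyclic AMP, 3 were higher and 4 lower in each genotype, close to the shares over all genes. The regulatory subunit genes Prkar2b (2.30 ± 0.15 in WT, 2.12 ± 0.16 in KO) and Prkar1a (0.90 ± 0.12 and 0.78 ± 0.12) were higher. Rapgef4 (-1.70 ± 0.15 and -1.62 ± 0.14) and Rapgef3 (-1.41 ± 0.24 and -1.24 ± 0.23), which encode Epac proteins, were lower.

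Of 13 HCN partner proteins tested, 6 were higher and 5 lower in TRAP in WT, and 4 were higher and 7 lower in KO. Those WT counts are near the 37.0% and 38.5% of all genes. Pex5, the paralog of Pex5l described above as the peroxisomal import receptor gene, was counted in this list, among the higher genes in both genotypes. The membrane contact proteins Vapb (1.42 ± 0.15 in WT, 1.52 ± 0.16 in KO) and Vapa (1.32 ± 0.092 and 1.12 ± 0.095) were higher in both. The actin crosslinker Flna (-2.57 ± 0.18) and the ubiquitin ligase Nedd4l (-2.16 ± 0.19) had the largest negative values in WT. Kcne2, an auxiliary subunit gene of potassium channels, was lowest in KO at -4.69 ± 1.89, followed by Mrvi1 at -2.14 ± 0.52. Mean levels of Kcne2 and Mrvi1 in TRAP KO were 0.122 and 0.172 CPM, near the floor of 3 counts. The summed choroid plexus markers ranged from 22.5 to 1177 CPM among the 3 input KO libraries, and their part in the Kcne2 value was not tested. With TRAP WT replicate 3 left out, the counts were 4 higher and 4 lower in WT, and 5 higher and 7 lower in KO.

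The channels related in structure, cyclic nucleotide-gated and Kcnh potassium channels, had 2 of 10 higher and 3 lower in WT, and 3 higher and 4 lower in KO. Kcnh4 (3.69 ± 0.47 in WT, 2.09 ± 0.44 in KO) was higher and Kcnh1 (-1.95 ± 0.42 and -1.86 ± 0.41) was lower in both. The mean Kcnh4 level in input WT was 0.154 CPM, near the floor of 3 counts, so its fold rests on few counts. Kcnh7 (1.72 ± 0.30 in WT, 1.37 ± 0.31 in KO) was also higher and Kcnh6 (-1.91 ± 0.46 and -1.46 ± 0.40) also lower in both. Cnga4 (1.38 ± 0.37) was higher and Kcnh5 (-1.81 ± 0.51) lower in KO. They had the same sign in WT (0.81 ± 0.40 and -0.83 ± 0.53) but did not pass there. Mean levels were also low for Kcnh6 in TRAP WT (0.213 CPM), Cnga4 in input KO (0.250) and Kcnh5 in TRAP KO (0.143). With TRAP WT replicate 3 left out, the WT counts were 3 higher and 4 lower. Of 15 other channels that shape Purkinje cell firing, 8 were higher and 3 lower in WT, and 7 and 3 in KO. The auxiliary subunit genes Kcnmb4 (2.78 ± 0.17 in WT, 2.19 ± 0.17 in KO) and Scn4b (2.34 ± 0.21 and 2.51 ± 0.22) were higher. The potassium channel genes Kcnc1 (-1.46 ± 0.15 and -1.43 ± 0.15) and Kcna2 (-1.13 ± 0.14 and -1.29 ± 0.13) were lower. Between genotypes, 0 of 62 genes of these lists passed edgeR in TRAP (1 at an unadjusted p under 0.05, 0 by DESeq2), and 0 of 72 in input (8 unadjusted, 3 by DESeq2). Over all genes the unadjusted counts were 212 of 14145 in TRAP and 2198 of 15997 in input, and DESeq2 called 3 and 292.

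The genes with the most similar profiles were taken as those with the smallest root mean square difference of centred log2(CPM + 0.5) values over the 14 libraries, among 13424 genes. For Hcn2 they were Ntng1, Ctsb and Pcdhb12, at 0.128, 0.128 and 0.132, where the median over all genes was 0.619. For Hcn3 they were Scamp2, Tmtc4 and Slc6a15 (0.179, 0.186 and 0.188), and for Hcn4 they were Ppp1r12b, Golga3 and Arhgef40 (0.181, 0.196 and 0.202). For Pex5l they were Gm19461, Plxnb3 and Igsf11 (0.167, 0.179 and 0.196). The profile of Pex5l differed from that of Hcn2 by 1.49, a larger distance than the 0.715 between Hcn2 and Hcn3 or the 0.641 between Hcn2 and Hcn4.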

How the data were processed

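The deposited values are whole-number counts per gene, 1 column for each of 14 libraries, and no normalization had been applied by the authors. The submitters' processing notes name Salmon 0.8.2 and the mm10 build without giving their role. Annotation, strand setting and the step to gene level are not given in the sources used here, so the counts may be rounded estimates. Symbols were matched for 24045 of 24100 gene numbers. Library totals were 18.8 M to 54.2 M (M, 1e6), and floors of 3 counts cover counting error only. No pair of libraries of a group agreed within sampling noise (lowest chi-square per degree of freedom 8.63).

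Differences were tested two-sided with edgeR's quasi-likelihood method (edgeR 4.0.16, R 4.3.3), using TMM factors, filterByExpr and Benjamini-Hochberg adjustment at 0.05 over all genes tested. Genotype was tested within each fraction (7 libraries, sex as covariate), and TRAP against input and the interaction were fitted on all 14 libraries with sex. These comparisons share libraries. Alternatives used DESeq2 1.42.0 and limma 3.58.1, other scalings, no filter, no sex term, GC and transcript length offsets (loess span 0.3, GC known for 94.2% to 95.6% of genes tested), the replicate block, and each library left out. The script was tested on simulated data. Levels between genes were divided by the longest GENCODE M21 transcript.

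Same-numbered input and TRAP libraries of WT deviated together from their group means (correlations 0.112 to 0.328 over 13424 genes). Their numbers were taken as pairs from the data. The main fits had no term for pairs, so their p-values, also those in WT, take no account of pairing. Only the replicate block used it. The same-numbered libraries of KO (correlations -0.122 to 0.248) and those of the 2 genotypes were not taken as pairs. Same-numbered input libraries of the 2 genotypes, which are different animals, reached 0.144, so such values do not settle the pairing. The replicate block between fractions paired same numbers in both genotypes. Besides the 4 genes and Astn2, the text names up to 2 genes of a list in each direction, by size of change among those past the threshold; some genes that this rule selects are not reported here. The 4 genes and the lists were chosen with earlier results of these data known. The length offsets and the list counts without TRAP WT replicate 3 were added after seeing the data.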

Additional observations from a re-analysis of the deposited data

How the results depend on the processing

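Pex5l kept its direction and passed in all 25 alternatives of TRAP against input in each genotype, and Hcn2 passed in 24 of 25 in WT and 23 of 25 in KO. With library totals Hcn2 reversed, at -0.12 in WT and -0.036 in KO, while Hcn3 (-1.32) and Hcn4 (-1.08) passed in WT and Hcn4 (-1.02) in KO. GC offsets took Hcn2 in KO to 0.39 (adjusted p = 0.0867 in edgeR). Length offsets reversed Hcn4, at 0.33 in WT and 0.31 in KO. Library quality weights in limma gave passing values of -1.06 for Hcn3 and -0.84 for Hcn4 in WT. The replicate block gave -0.63 for Hcn3 in WT and changed no other call of the 4 genes in either genotype. Where the numbers were not taken as pairs, the block moved the count of genes passing between fractions in KO from 12176 to 11442 and left those between genotypes at 1 in TRAP and 3 in input. The library most correlated with each one carried the same number for 5 of 6 libraries in WT and 4 of 6 in KO. Between genotypes it did so for 0 of 6 in TRAP and 4 of 6 in input. The replicate block with length offsets gave 0.21 for Hcn4 in WT, and -0.53 for Hcn3 (not passing) and 0.27 for Hcn4 in KO. The cause of these shifts was not tested. Leaving out 1 library moved the WT value of Hcn3 from -1.02 to -0.23 and that of Hcn4 from -1.15 to 0.048.

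None of the 4 genes passed between genotypes in either fraction under any alternative run. Hcn3 in TRAP reversed to 0.13 with quality weights, and leaving out 1 library moved Hcn4 in TRAP from -0.018 to 1.06. The number of genes passing in TRAP was 1, and became 3 with DESeq2, 2 with all 14 libraries, 61 with quality weights and 1 to 2 when 1 library was left out. In input it was 3, and became 292 with DESeq2, 5 with its size factors, 23 when no gene was filtered, 8 with length offsets, 8 with quality weights and 1 to 158 when 1 library was left out (158 without input KO replicate 2).

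The interaction values lay near 0 and changed sign often: with library totals Hcn2 was 0.088, Hcn4 0.067 and Pex5l 0.047, without the sex term Hcn2 was 0.023 and Hcn4 0.026, and with quality weights Hcn2 was 0.21, Hcn3 0.41 and Hcn4 0.63. The replicate block gave 0.069 for Hcn2, 0.076 for Hcn4 and 0.011 for Pex5l, and with length offsets 0.059 for Hcn4. Leaving out 1 library gave -0.093 to 0.22 for Hcn2, -0.58 to 0.18 for Hcn3, -0.36 to 0.88 for Hcn4 and -0.24 to 0.13 for Pex5l. DESeq2 called 1 gene in the interaction. Hcn4 in TRAP rests on as few as 26 counts, which limits its precision.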
